A study of Mus musculus with 9 samples.

Results

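The alveolar surface of the mouse lung is covered mainly by type 1 epithelial cells, the thin cells across which gas exchange takes place. The 10 genes described here are 7 genes that mark these cells (Ager, Hopx, Pdpn, Rtkn2, Cav1, Clic5 and Emp2) and 3 simple-epithelium keratins (Krt8, Krt18 and Krt19) that are used to recognise alveolar epithelium in an injured, transitional state. They were taken by gene symbol from the 52381 genes of the deposited table, in which each symbol occurs once. The values are RNA sequencing levels in lung tissue from 9 mice with acute lung injury from lipopolysaccharide (LPS), the endotoxin of Gram-negative bacteria. The TMAO group holds 5 mice that had LPS injury and received TMAO (trimethylamine N-oxide), which the liver makes from a product of gut bacteria. The LPS-ALI group holds 4 mice with LPS injury alone. Strain, sex, age, doses, routes and times are not stated in the labels, and uninjured lungs are not analysed here, so no level below can be set against a healthy lung. The comparison is of TMAO with no TMAO among injured lungs.

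As background, type 1 cells are renewed from type 2 cells, the surfactant-producing cells of the alveolus. After injury, type 2 cells in mice pass through an intermediate state that is marked by Krt8 before they flatten and take up type 1 genes, a step in which the transcriptional coactivators YAP and TAZ and their TEAD partners take part. Keratins assemble as pairs of an acidic type I and a basic type II chain. Krt8 is a type II keratin, and its usual partner is the type I keratin Krt18. Krt19 is another type I keratin of simple epithelia.

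The promoters of 3 members, Pdpn, Krt8 and Krt18, are shown first. Pdpn is the only member whose values did not overlap between the groups, and Krt8 and Krt18 are neighbours in the genome whose levels parted in 1 library. The windows come from RefSeq on GRCm38.p6, run from 250 bases before to 50 bases after an annotated start, and are written 5′ to 3′ on the strand of the gene. Capitals mark the TATA box letters TATAAA and the GC box letters GGGCGG on either strand. In the Krt8 window the 2 TATAAA matches, 1 on each strand, overlap. The windows lie at chr4:143299515-143299814 (minus strand) for Pdpn, chr15:102004293-102004592 (minus strand) for Krt8 and chr15:102027966-102028265 (plus strand) for Krt18.
Pdpn: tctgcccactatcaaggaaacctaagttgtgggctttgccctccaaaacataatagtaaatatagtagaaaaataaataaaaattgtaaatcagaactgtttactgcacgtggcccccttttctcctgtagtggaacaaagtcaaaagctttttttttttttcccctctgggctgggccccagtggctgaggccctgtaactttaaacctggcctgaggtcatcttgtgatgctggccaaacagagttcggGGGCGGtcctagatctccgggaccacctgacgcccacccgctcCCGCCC
Krt8: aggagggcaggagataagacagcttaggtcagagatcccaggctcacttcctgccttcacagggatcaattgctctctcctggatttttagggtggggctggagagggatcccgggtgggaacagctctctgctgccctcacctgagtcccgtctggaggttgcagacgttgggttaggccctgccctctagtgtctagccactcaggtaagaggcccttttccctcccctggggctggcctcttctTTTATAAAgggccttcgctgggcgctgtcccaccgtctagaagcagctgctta
Krt18: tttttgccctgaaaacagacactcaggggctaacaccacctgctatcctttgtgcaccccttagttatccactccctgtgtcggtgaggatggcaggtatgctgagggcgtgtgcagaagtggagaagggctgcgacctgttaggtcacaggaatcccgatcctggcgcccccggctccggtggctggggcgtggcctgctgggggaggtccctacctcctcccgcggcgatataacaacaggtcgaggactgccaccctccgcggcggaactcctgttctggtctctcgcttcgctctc

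The RefSeq table held windows for 8 of the 10 members, 10 windows in all, since Hopx and Cav1 had 2 each. TATAAA was found in windows of 2 members, Cav1 and Krt8, and in 13.6% of all 32851 windows. GGGCGG was found in 4 members, Cav1, Clic5, Emp2 and Pdpn, and in 35.7% of all windows. CCAAT was found in 2 members, Ager and Hopx, and in 37.4% of all windows. The AP-1 letters TGANTCA and the TEAD letters GGAATG were in no member window, and in 7.81% and 14.7% of all windows. These motifs were searched on both strands, and a match or its absence describes the letters of these windows only.

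Levels are given as FPKM, fragments scaled by gene length and by library size, so levels of different genes can be compared per length. Read totals are not given. The spacing of low values put the depth of the libraries at 0.379 to 0.678 in TMAO and 0.497 to 1 in LPS-ALI lungs, relative to the deepest. TMAO replicate 5 was the shallowest. In it 8846 genes reached 1 FPKM, against 11158 to 12239 in each of the other libraries, and its median tested gene stood at 1.74 on the log2 scale, against 2.74 to 3.35 in the others. LPS-ALI replicate 4 had the lowest median correlation with the other libraries, 0.890, next to 0.895 for TMAO replicate 5 and at least 0.929 for the remaining libraries. LPS-ALI replicates 3 and 4 carry an X in their library code, and all other libraries carry a B. The meaning of the letters is not stated, and no TMAO library has an X. The labels name lung as the tissue, while their extraction text names platelets. The type 2 cell marker Sftpc stood at 3842 to 7333 FPKM in TMAO and 710 to 9809 FPKM in LPS-ALI lungs, and Ager at 111 FPKM or more in every library. In bulk tissue, fewer cells of a type and less RNA per cell cannot be told apart.

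All 10 members were detected in every library and passed the filter, a level of 1 FPKM or more in 4 or more libraries, which left 11817 genes to test. With limma, 0 of the 10 members passed an adjusted p of 0.05, with a background of 0.0% of all genes tested, and the adjusted p was 0.998 for each member. At an unadjusted limma p under 0.05, Pdpn and Krt19 were lower in TMAO lungs, against a background of 2.93% of all genes, and Cav1 was higher, against 0.423%. Over all tested genes, the median log2 difference (TMAO minus LPS-ALI) was -0.17. Differences called relative below have this median subtracted, on the log2(FPKM + 1) scale. The limma p-values and standard errors are those of the unshifted difference, which is printed beside each p, and the relative differences themselves were not tested. Of the 7 type 1 genes, 4 lay above the median gene and 3 below, with a median relative difference of 0.20. The 3 keratins lay below, with a median of -0.65, where the median of all genes is 0 by construction.

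**Figure D1:**
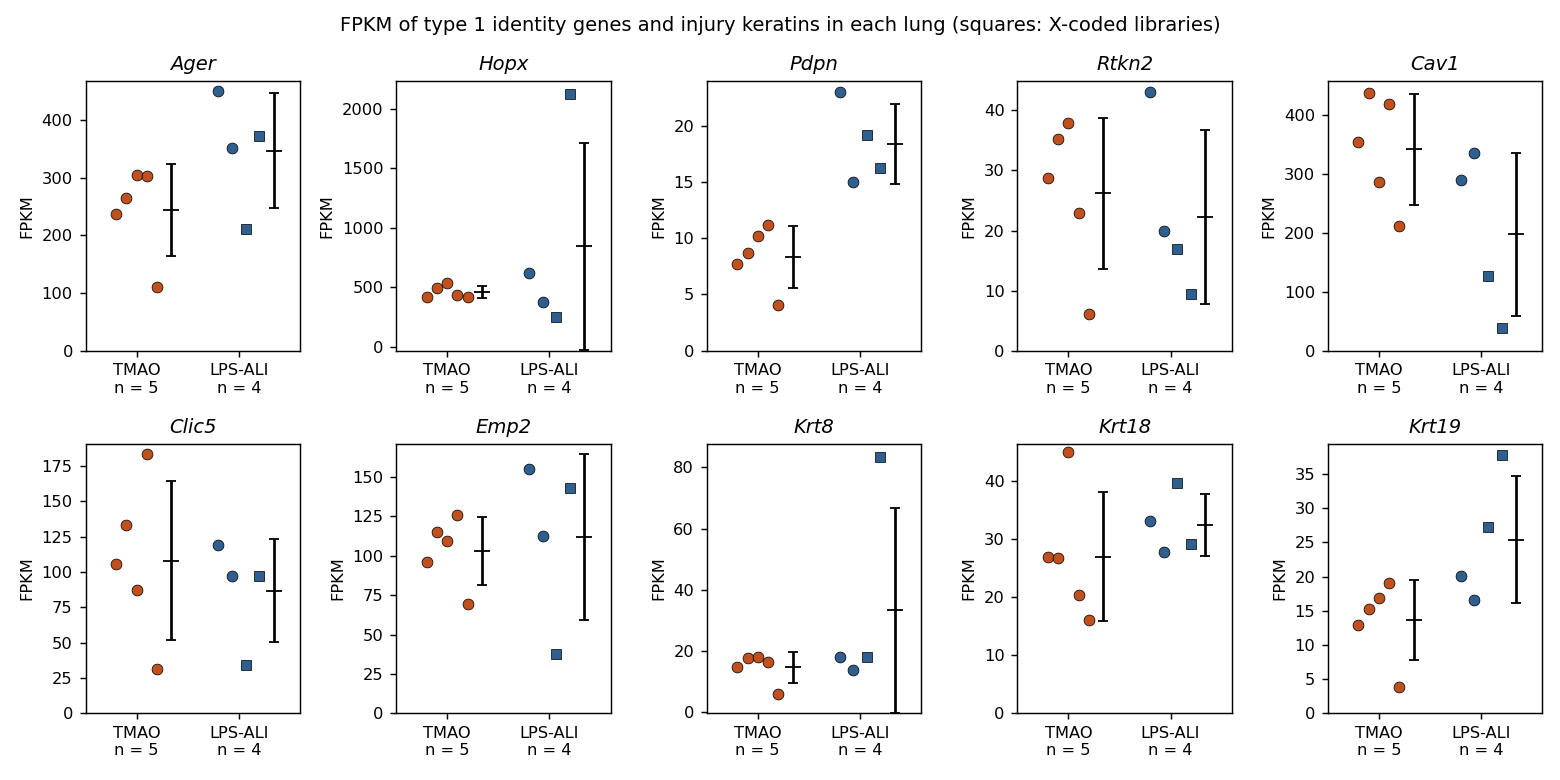
FPKM of the 10 genes in each lung, with 5 TMAO lungs left and 4 LPS-ALI lungs right in each panel; points are lungs (squares mark the X-coded libraries), and bars are the mean and SD. The Pdpn points do not overlap between the groups, and LPS-ALI replicate 4 stands far above the other lungs for Hopx and Krt8.

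Pdpn encodes podoplanin, a mucin-type membrane glycoprotein of the apical surface of type 1 cells that is also made by lymphatic endothelium and some fibroblasts and macrophages. The gene (ENSMUSG00000028583) is on the minus strand of chromosome 4 (143267431 to 143299564, GRCm38). Pdpn had 7.75, 8.67, 10.2, 11.2 and 4.03 FPKM in TMAO replicates 1 to 5, against 23.0, 15.0, 19.2 and 16.3 FPKM in LPS-ALI replicates 1 to 4. All TMAO lungs lay below all LPS-ALI lungs, and this was also so for the level relative to the median gene of each library, which was 0.25 to 0.63 in TMAO and 1.12 to 1.57 in LPS-ALI lungs. Mean FPKM was 8.36 ± 2.76 (SD, n = 5) in TMAO and 18.4 ± 3.56 (SD, n = 4) in LPS-ALI lungs, a ratio of means of 0.455.

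The unshifted log2 difference of Pdpn was -1.09 ± 0.35 (SE), with a limma unadjusted p of 0.00745 and an adjusted p of 0.998, and the relative difference was -0.92. Pdpn was thus the 1 member of 10 without overlap, where by FPKM 1.36% of all tested genes were without overlap and lower in TMAO and 0.118% without overlap and higher. By the relative level these shares were 1.7% and 1.72%. A share of 2.78% of all tested genes had a larger relative difference in either direction. Its spread within the groups was 0.21 log2 units of relative level, against 0.38 for the median tested gene. Leaving out any of the 9 libraries in turn kept the relative difference between -1.01 and -0.84. Without the X-coded libraries it was -0.91. Library weights gave the smallest adjusted p of all settings, 0.0751 by limma.

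Pdpn was also set beside the other type 1 members within each library. Its level minus the mean of the other 6 genes was -4.21 to -3.85 log2 units in TMAO lungs and -3.21 to -1.88 in LPS-ALI lungs. Every TMAO lung lay below every LPS-ALI lung, and LPS-ALI replicate 3 stood highest at -1.88. This gap restates the same Pdpn values and is no separate support. The mean it subtracts includes Cav1, which had a relative difference of 1.32. Of the lymphatic endothelial markers 3 of 5 were tested, none of them past an unadjusted p of 0.05, and the defining gene Prox1 was at most 0.23 FPKM in any library. Their summed level was 26.1 to 143 FPKM in TMAO and 48.0 to 661 FPKM in LPS-ALI lungs, where Lyve1 alone gave 656 FPKM in replicate 4. Summed fibroblast markers were at 787 to 1375 FPKM in TMAO and 228 to 934 FPKM in LPS-ALI lungs. Inmt alone averaged 854 FPKM of this sum in TMAO and 455 FPKM in LPS-ALI lungs. Of the 8 fibroblast markers, all tested, 5 lay above the median gene and 3, Dcn, Pdgfra and Tcf21, below. Macrophage markers summed to 75.4 to 278 FPKM in TMAO and 234 to 364 FPKM in LPS-ALI lungs, with 6 of 7 tested, 4 of them below the median gene, a median relative difference of -0.42 and none at 0. Among them Cd68, a lysosomal protein gene chosen after its values were seen, had 8.65 to 16.8 FPKM in TMAO and 17.7 to 23.6 FPKM in LPS-ALI lungs, without overlap by FPKM, as for Pdpn, but with overlap by the relative level. By FPKM, 1.36% of all tested genes were without overlap and lower in TMAO. The part of lymphatic endothelium, fibroblasts and macrophages in the Pdpn difference was not tested.

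Ager encodes the receptor for advanced glycation end products, which in lung lies on the basal membrane of type 1 cells. It lies on chromosome 17 from 34597862 to 34600936, on the plus strand. Ager had 238, 264, 304, 304 and 111 FPKM in TMAO replicates 1 to 5, against 451, 352, 211.3 and 373 FPKM in LPS-ALI replicates 1 to 4. LPS-ALI replicate 3 lay below 4 of the 5 TMAO lungs, so the groups overlapped. The unshifted log2 difference was -0.54 ± 0.35 (SE), with a limma unadjusted p of 0.144. The relative difference was -0.37, and it was negative in all 18 other settings, from -0.57 to -0.26.

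Hopx, which encodes a small homeodomain protein that does not bind DNA and is kept on in mature type 1 cells, lies on chromosome 5 (77086988 to 77115121). It had 419, 497, 536, 438 and 418 FPKM in TMAO lungs, against 619, 375, 252 and 2127 FPKM in LPS-ALI replicates 1 to 4. The TMAO lungs lay within a narrow range, while LPS-ALI replicates 3 and 4 were the lowest and the highest of all 9 lungs. The relative difference was -0.20, with an SE of 0.46, and it turned to 0.37 without LPS-ALI replicate 4 and to 0.15 without the X-coded libraries. The antisense gene Hopxos overlaps Hopx by 7772 bases. It had 0 to 0.900 FPKM in TMAO and 0.390 to 0.840 FPKM in LPS-ALI lungs, and whether reads were counted by strand is not given.

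**Figure D2:**
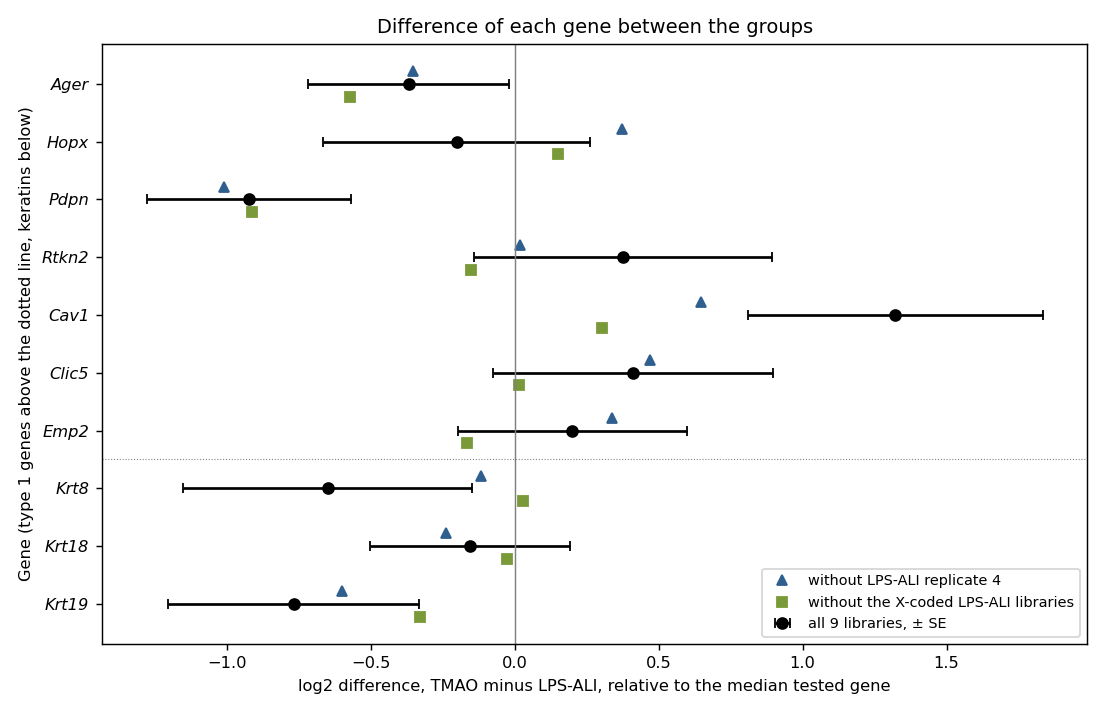
Relative log2 difference of each gene, TMAO minus LPS-ALI, over 9 libraries with the standard error of the unshifted difference from limma (black), without LPS-ALI replicate 4 (triangles) and without the X-coded LPS-ALI libraries (squares). Pdpn stays near -0.92 in all 3, while without the X-coded libraries Cav1 is at 0.30 and Krt8 changes sign to 0.03.

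Cav1, the gene for the caveola coat protein caveolin-1, is high in type 1 cells and also in capillary endothelium. It lies on chromosome 6 (17306335 to 17341452). Cav1 had 355, 438, 286, 419 and 212 FPKM in TMAO lungs, against 290, 335, 127 and 38.7 FPKM in LPS-ALI replicates 1 to 4. The X-coded libraries held the lowest values, and the other LPS-ALI lungs lay inside the TMAO range. The unshifted log2 difference was 1.15 ± 0.51 (SE), with a limma unadjusted p of 0.0396. The relative difference was 1.32, and 0.271% of all tested genes lay above it. It came to 0.65 without LPS-ALI replicate 4 and to 0.30 without the X-coded libraries.

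The X-coded libraries were also low for other caveola genes. All 7 caveola genes, Cav1 among them, lay above the median gene in TMAO lungs with a median of 0.60, 0 of 7 passed an adjusted limma p of 0.05, and 1, Cav1 itself, had an unadjusted p under 0.05, higher in TMAO, against 0.423% of all genes. Without the X-coded libraries 5 of 7 lay above, with a median of 0.10. Cav2, which assembles with caveolin-1, had a lowest value of 66.7 and a median of 132 FPKM in TMAO lungs, against 120, 135, 40.8 and 26.0 FPKM in LPS-ALI replicates 1 to 4. Cavin2, a caveola coat adaptor abundant in endothelium, had 47.0 to 218 FPKM in TMAO lungs, against 142, 104, 45.9 and 14.7 FPKM in LPS-ALI replicates 1 to 4.

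The endothelial marker score was lowest in the X-coded libraries, as Cav1 was. This score, the mean log2 level of the 11 tested members of 11 relative to the median gene, was 2.23 to 3.02 in TMAO lungs, against 2.44, 2.73, 1.94 and 1.48 in LPS-ALI replicates 1 to 4. Their summed level was 274 to 1450 FPKM in TMAO and 459 to 884 FPKM in LPS-ALI lungs, with none at 0. TMAO replicate 5 had the highest relative Cav1 level, 6.00, and the lowest endothelial score of the TMAO lungs, 2.23. By FPKM the same lung was the lowest TMAO lung for both, with 212 FPKM for Cav1 and a summed endothelial level of 274 FPKM. The endothelial genes differed in LPS-ALI replicate 4, where Cav1 was lowest. Cldn5, Car4 and Gpihbp1 were highest there, while Pecam1, Plvap, Tek and Tie1 were lowest there, at 27.0, 7.40, 0.66 and 1.94 FPKM. Cdh5, Kdr, Ednrb and Eng were neither highest nor lowest there. These genes were sorted after their values were seen. Relative Cav1 minus the endothelial score averaged 3.02 ± 0.51 (SD, n = 5) in TMAO and 2.16 ± 0.90 (SD, n = 4) in LPS-ALI lungs, a difference of 0.86. The part of endothelium in the Cav1 difference was not tested. Of the type 2 cell markers, 11 of 12 lay above the median gene, but without LPS-ALI replicate 4 all 12 lay below it.

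The remaining type 1 genes overlapped widely between the groups. Rtkn2, a rhotekin family gene that marks type 1 cells, had 28.7, 35.2, 37.9, 22.9 and 6.19 FPKM in TMAO lungs, against 43.0, 19.9, 16.9 and 9.45 FPKM in LPS-ALI replicates 1 to 4. Its relative difference was 0.38, with an SE of 0.52, and -0.15 without the X-coded libraries. Clic5, a chloride intracellular channel family protein tied to the actin cytoskeleton, had 105, 133, 86.9, 183 and 31.1 FPKM in TMAO lungs, against 119, 96.9, 34.2 and 97.0 FPKM in LPS-ALI replicates 1 to 4.

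The relative difference of Clic5 was 0.41, with an SE of 0.49, and it came to 0.02 without the X-coded libraries. Emp2, a tetraspan epithelial membrane protein, had 96.1, 115, 109, 126 and 69.3 FPKM in TMAO lungs, against 155, 113, 37.9 and 143 FPKM in LPS-ALI replicates 1 to 4. LPS-ALI replicate 3 was the lowest lung for Emp2, and among the LPS-ALI lungs also for Clic5 and Ager. The relative difference of Emp2 was 0.20, with an SE of 0.40, and it turned to -0.19 without LPS-ALI replicate 3. Rtkn2 lies on chromosome 10 (67979570 to 68059740), Clic5 on chromosome 17 (44188584 to 44280172) and Emp2 on chromosome 16 (10281749 to 10313968).

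Of the keratins, Krt8 was dominated by 1 lung. Krt8 (chromosome 15, 101996698 to 102004482, minus strand) had 14.8, 17.7, 18.04, 16.5 and 5.76 FPKM in TMAO lungs, against 17.9, 13.7, 17.8 and 83.6 FPKM in LPS-ALI replicates 1 to 4. Replicate 4 stood far above all other lungs, which shared a single range apart from the low TMAO replicate 5. The unshifted log2 difference was -0.82 ± 0.50 (SE), with a limma unadjusted p of 0.124. The relative difference was -0.65. It came to -0.12 without LPS-ALI replicate 4 and turned to 0.03 without the X-coded libraries. The processed pseudogene Krt8-ps was listed at 0 in every library.

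Krt18 (chromosome 15, 102028180 to 102032027, plus strand) lies 23697 bases from Krt8 with no annotated gene between them. It had 26.8, 26.7, 44.9, 20.3 and 16.0 FPKM in TMAO lungs, against 33.1, 27.7, 39.5 and 29.1 FPKM in LPS-ALI replicates 1 to 4. LPS-ALI replicate 4, which held the highest Krt8, was in the middle of the Krt18 range. The log2 level of Krt18 minus that of Krt8 was 0.29 to 1.33 in TMAO lungs and 0.85, 0.97 and 1.11 in LPS-ALI replicates 1 to 3, but -1.49 in LPS-ALI replicate 4. The relative difference of Krt18 between the groups was -0.15, with an SE of 0.35.

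Krt19 (chromosome 11, 100140810 to 100148665, minus strand) had 13.0, 15.3, 16.9, 19.1 and 3.89 FPKM in TMAO lungs, against 20.2, 16.5, 27.3 and 37.8 FPKM in LPS-ALI replicates 1 to 4. Both X-coded libraries were above the rest, and LPS-ALI replicate 2 lay below TMAO replicates 3 and 4. The unshifted log2 difference was -0.94 ± 0.44 (SE), with a limma unadjusted p of 0.0481. The relative difference was -0.77. It was negative in all 18 other settings and came to -0.33 without the X-coded libraries.

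The type 1 genes were then set beside the keratins within each library, which cancels the scaling of the library apart from the effect of the added 1 FPKM. The type 1 score, the mean log2 level of the 7 genes relative to the median gene, was 3.57 to 3.93 in TMAO and 3.18 to 4.18 in LPS-ALI lungs. The keratin score over the 3 keratins was 0.94 to 1.80 in TMAO and 1.40 to 2.55 in LPS-ALI lungs. Type 1 minus keratin was 2.44, 2.53, 2.14, 2.63 and 2.61 log2 units in TMAO replicates 1 to 5, against 2.64, 2.47, 1.15 and 1.07 in LPS-ALI replicates 1 to 4. The B-coded LPS-ALI lungs thus lay with the TMAO lungs, and the X-coded lungs lay below all of them.

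The mean gap was 2.47 ± 0.20 (SD, n = 5) in TMAO and 1.83 ± 0.84 (SD, n = 4) in LPS-ALI lungs, a difference of 0.64. Without the X-coded libraries the difference was -0.08, and without LPS-ALI replicate 4 it was 0.39. It is a score over chosen genes and is given without a test. Without Cav1 the type 1 score averaged 3.53 ± 0.16 (SD, n = 5) in TMAO and 3.61 ± 0.44 (SD, n = 4) in LPS-ALI lungs. Ager against Krt8 alone gave 3.82 to 4.13 in TMAO lungs, against 4.58, 4.59, 3.50 and 2.15 in LPS-ALI replicates 1 to 4.

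**Figure D3:**
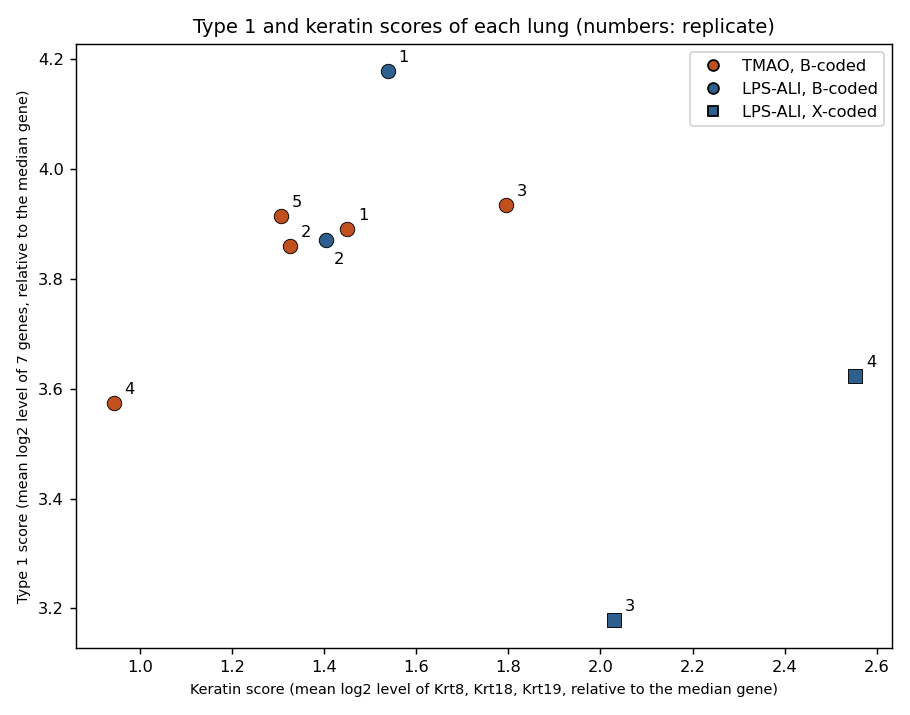
Type 1 score against keratin score of each lung, both as mean log2 level relative to the median gene; numbers are replicates and squares the X-coded LPS-ALI libraries. The X-coded lungs hold the highest keratin scores, 2.03 and 2.55, while the B-coded LPS-ALI lungs lie among the TMAO lungs or above them.

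The 2 X-coded lungs differed from each other in their members. LPS-ALI replicate 3 held the lowest Hopx, Clic5 and Emp2 relative to the median gene. LPS-ALI replicate 4 held the highest Hopx, Krt8 and Krt19 and the lowest Cav1 and Rtkn2. The ciliated cell marker score was also higher in both X-coded lungs, at 1.80 and 2.21, against 0.75 and 0.96 in the other LPS-ALI lungs and 0.32 to 1.38 in TMAO lungs. Not every marker was. Sec14l3 had 285, 155, 57.5 and 121 FPKM in LPS-ALI replicates 1 to 4, and Tppp3 had 99.2, 51.55, 40.0 and 94.7 FPKM. Of 8 markers 7 were tested, 6 below the median gene, with a median relative difference of -0.86, or -0.19 without the X-coded libraries. With limma 0 passed an adjusted p of 0.05. At an unadjusted limma p under 0.05 there were 5, all lower in TMAO, against 2.93% of all genes. Their summed level was 122 to 297 FPKM in TMAO and 214 to 422 FPKM in LPS-ALI lungs. In it Sec14l3, the 1 marker above the median gene, averaged 171 and 155 FPKM. The part of ciliated cells in the keratin levels was not tested. Club cell markers scored 4.99 to 6.51 in TMAO and 4.43 to 5.80 in LPS-ALI lungs, with the lowest value in LPS-ALI replicate 4. Basal cell markers were near 0, with Krt5 and Krt14 listed at 0 in every library and the 5 markers summing to at most 0.600 FPKM.

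**Figure D4:**
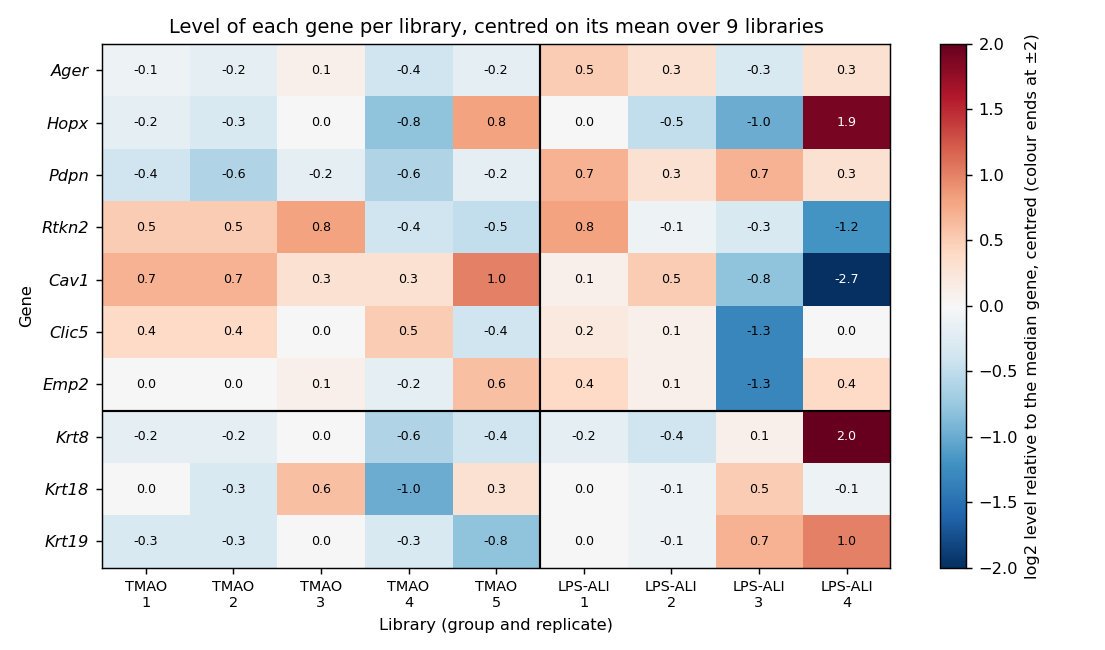
Log2 level of each gene relative to the median gene of its library, centred on the gene's mean over the 9 libraries, with TMAO lungs left of the vertical black line and LPS-ALI lungs right. Pdpn is below its mean in all 5 TMAO lungs and above it in all 4 LPS-ALI lungs; LPS-ALI replicate 4 holds the extreme values of Hopx, Cav1 and Krt8.

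The members did not vary as 1 block across the 9 lungs. Pearson correlations of relative levels were computed for all 45 pairs with exact permutation p-values. Among the 21 pairs of type 1 genes r ranged from -0.59 to 0.65 with a median of 0.14, and 0 pairs passed after Benjamini-Hochberg adjustment over the 45. The 3 keratin pairs had r of 0.13 to 0.78, the highest for Krt8 with Krt19 (Spearman rho 0.73, exact permutation p = 0.00386 for r and 0.0311 for rho, adjusted p = 0.0867 and 0.233), and r was 0.72 without the 2 lungs farthest from the median of Krt8.

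Krt8 with Krt18, the usual partners, had r = 0.13 and rho = 0.42 (exact permutation p = 0.634 and 0.270, adjusted p = 0.783 and 0.758), and r was 0.59 without LPS-ALI replicate 4 and TMAO replicate 4. A single pair passed the adjustment for r, Cav1 with Krt19, which ran in opposite directions (r = -0.91, rho = -0.90, exact permutation p = 0.000143 and 0.00203, adjusted p = 0.00645 and 0.0913, n = 9). The permutations ran over all 9 libraries, so these p-values do not separate co-variation among lungs from differences between groups or library codes. TMAO replicate 5, the shallowest library, held the highest relative Cav1, 6.00, and the lowest relative Krt19, 0.55. Without LPS-ALI replicates 3 and 4, the lungs farthest from the median of Cav1, r was -0.84. With 5 and 4 lungs a group, no correlation within a group or within the X-coded libraries is given. Cav1 with Krt8 had r = -0.92 (rho = -0.57, exact permutation p = 0.00943 and 0.121, adjusted p = 0.141 and 0.543), which became -0.11 without those 2 lungs.

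The genes most like Ager over the 9 libraries, of 6856 with a mean FPKM of at least 5, were Gm6052, Ngp, Zranb2, Apex1 and Nelfe, with r of 0.86 to 0.88 and rho of 0.60 to 0.95. None of these is a type 1 marker of the lists used here, and the closest member, Pdpn, ranked 565th by r. For Krt8 the genes most alike were Dusp28, Tinf2, Cxcl14, Cep57 and Sphk1, with r of 0.98 to 1.00 and rho of 0.68 to 0.90. These r values are descriptions over 9 libraries that share the high value of LPS-ALI replicate 4. Cxcl14, a chemokine gene, averaged 19.0 FPKM in TMAO and 80.5 FPKM in LPS-ALI lungs.

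A wider list of 20 type 1 cell genes was tested in full. It shares Krt7 with the list of other keratins and Sec14l3 with the ciliated cell markers. Of the 20 genes, 17 lay below the median gene in TMAO lungs and 3 above, with a median relative difference of -0.29. With limma 0 of 20 passed an adjusted p of 0.05, and 2 had an unadjusted p under 0.05, both lower in TMAO, against 2.93% of all genes. Without LPS-ALI replicate 4, 13 of 20 lay below with a median of -0.10, and without the X-coded libraries 19 of 20 with a median of -0.25. Igfbp2, an insulin-like growth factor binding protein gene that in mice marks mature type 1 cells, had 4.63, 8.16, 5.13, 11.5 and 6.87 FPKM in TMAO lungs, against 16.6, 10.5, 14.8 and 19.6 FPKM in LPS-ALI replicates 1 to 4.

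By FPKM, Igfbp2 thus overlapped only between TMAO replicate 4 and LPS-ALI replicate 2, and its groups overlapped by the relative level too. Its unshifted log2 difference was -1.01, with a limma unadjusted p of 0.0122, and its relative difference was -0.85. Gprc5a, an orphan receptor gene of lung epithelium, had 7.72 to 37.0 FPKM in TMAO lungs, against 43.1, 34.7, 34.3 and 76.0 FPKM in LPS-ALI replicates 1 to 4. Its groups overlapped by FPKM but not by the relative level, where 1.7% of all tested genes were without overlap and lower in TMAO. Its relative difference was -0.78. Aqp5, the water channel of type 1 cells, had 20.6 to 45.3 FPKM in TMAO lungs, against 76.9, 47.7, 40.1 and 94.7 FPKM in LPS-ALI replicates 1 to 4. LPS-ALI replicate 4 held the highest value of all these 3 genes.

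Genes of the injury transitional state lay mostly below the median gene in TMAO lungs. Of 20 listed genes 17 were tested, 15 of them below, with a median relative difference of -0.42. With limma 0 of 17 passed an adjusted p of 0.05, while 4 had an unadjusted p under 0.05, all lower in TMAO, against 2.93% of all genes. Without the X-coded libraries 15 of 17 lay below with a median of -0.23. Leaving out LPS-ALI replicate 4 gave 13 of 17 and -0.22, and leaving out TMAO replicate 5 gave 13 of 17 and -0.51. Without LPS-ALI replicate 4 and TMAO replicate 5, 10 of 17 lay below with a median of -0.14. Cldn4, Areg and Sprr1a, which mark this state in mice, were at most 0.640 FPKM in any library.

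Tnfrsf12a, the receptor for the cytokine TWEAK, had 7.03, 7.21, 7.05, 16.2 and 4.29 FPKM in TMAO lungs, against 13.9, 16.9, 17.7 and 72.6 FPKM in LPS-ALI replicates 1 to 4. By FPKM the groups overlapped only at TMAO replicate 4 and LPS-ALI replicate 1. By the relative level they did not overlap, where 1.7% of all tested genes were without overlap and lower in TMAO. The unshifted log2 difference was -1.51, with a limma unadjusted p of 0.00698. The relative difference was -1.34. Lgals3, the gene for galectin-3, which macrophages also make, had 43.8 to 79.2 FPKM in TMAO and 90.0 to 201 FPKM in LPS-ALI lungs. Its groups did not overlap by FPKM, where 1.36% of all tested genes were without overlap and lower in TMAO. They overlapped by the relative level, with a relative difference of -0.67. Ndrg1, a stress- and hypoxia-responsive gene, had 1.98 to 7.93 FPKM in TMAO lungs, against 7.76, 8.51, 10.7 and 94.9 FPKM in LPS-ALI replicates 1 to 4. LPS-ALI replicate 4 stood far above the other lungs for this gene. Sfn, an epithelial 14-3-3 gene chosen after its values were seen, had 107 FPKM in LPS-ALI replicate 4, 3.13 to 4.80 FPKM in the other LPS-ALI lungs and 0.260 to 5.21 FPKM in TMAO lungs.

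Among other keratins, 5 of 14 were tested and 0 passed. Krt7, a type II keratin of simple epithelia, had 43.1, 42.9, 63.8, 38.6 and 15.8 FPKM in TMAO lungs, against 61.7, 43.5, 23.6 and 224 FPKM in LPS-ALI replicates 1 to 4. As with Krt8, LPS-ALI replicate 4 stood above all other lungs. The stratified-epithelium keratins Krt4, Krt5, Krt6a, Krt14 and Krt16 were listed at 0 in every library.

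Of the listed genes of the YAP, TAZ and TEAD pathway, all 20 were tested, 14 lay above the median gene and 6 below with a median of 0.21, 0 passed an adjusted limma p of 0.05, and 1 had an unadjusted p under 0.05, lower in TMAO, against 2.93% of all genes. Without LPS-ALI replicate 4 and TMAO replicate 5, 18 of 20 lay above and 2 below, with a median of 0.30, and without the X-coded libraries 12 lay above and 8 below, with a median of 0.02. The gene with that p, Ccn1, a matricellular YAP target that is also an immediate early gene, had 9.15, 11.1, 8.52, 27.1 and 0.3 FPKM in TMAO lungs, against 22.9, 24.7, 47.9 and 13.9 FPKM in LPS-ALI replicates 1 to 4, a relative difference of -1.45. Ccn2, a YAP target of the same family that is also in the transitional state list, had 6.44 to 130 FPKM in TMAO and 6.47 to 59.1 FPKM in LPS-ALI lungs. It lay 0.80 above the median gene. Yap1 itself had 8.30 to 40.2 FPKM in TMAO and 18.3 to 32.1 FPKM in LPS-ALI lungs.

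Of the alveolar epithelial transcription factors, 11 of 15 were tested, 9 lay below the median gene, 0 passed and 2 had an unadjusted limma p under 0.05, both lower in TMAO, against 2.93% of all genes. Nkx2-1, the lineage factor of alveolar epithelium, had 11.5, 17.0, 15.9, 14.9 and 4.41 FPKM in TMAO lungs, against 23.1, 13.3, 25.5 and 40.5 FPKM in LPS-ALI replicates 1 to 4, a relative difference of -0.80. Without the X-coded libraries 5 of 9 factors lay below. Growth factor and receptor genes of epithelial repair had 13 of 21 members tested, 8 above and 5 below, and 0 passed. Fgfr2, the epithelial receptor of the fibroblast growth factors Fgf7 and Fgf10, had 3.29 to 11.95 FPKM in TMAO and 13.7 to 24.4 FPKM in LPS-ALI lungs. Its groups did not overlap by FPKM or by the relative level. Of all tested genes, 1.36% and 1.7% were without overlap and lower in TMAO by these measures. It was the 1 gene of these 13 without overlap by FPKM, and the 1 with an unadjusted limma p under 0.05, against 2.93% of all genes. Its unshifted log2 difference was -0.96, with a limma unadjusted p of 0.0269, and its relative difference was -0.79.

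Junction and adhesion genes of epithelium were level with the median gene, with 14 of 15 tested, 6 above and 8 below, a median of -0.04 and 0 past the adjusted threshold. Cldn7, a claudin of epithelial junctions, had 3.98 to 6.52 FPKM in TMAO and 7.01 to 16.4 FPKM in LPS-ALI lungs. Its groups did not overlap by FPKM, where 1.36% of all tested genes were without overlap and lower in TMAO. They overlapped for the level relative to the median gene, with a relative difference of -0.59.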

How the data were processed

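The deposited table holds FPKM values made by the authors, 1 column per library, rounded to 2 decimals. The submitters' processing notes list fastp, HISAT2, SAMtools and featureCounts, without versions, and the build mm10. Annotation, strand setting and gene lengths: not given in the sources used here. Per the labels' protocols, ribosomal RNA was depleted. Libraries were grouped by title (5 TMAO, 4 LPS-ALI), whose titles number the mice within each group. Read totals are not given, so no counting interval is given.

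The 11817 genes at 1 FPKM or more in 4 or more libraries were tested as log2(FPKM + 1) with limma 3.58.1 in R 4.3.3, mean-variance trend, two-sided, with Benjamini-Hochberg adjustment over all genes and a threshold of 0.05. The log2(FPKM + 1) scale understates changes of low genes. On simulated data with the spread of these 11817 genes, this comparison called 5% of the genes given a 2-fold change and 61% of those given a 4-fold change. Of the unchanged genes 3 were called. The changed genes were drawn from the higher levels, and noise was drawn for each gene separately, without shifts shared within a library. These shares therefore need not hold for the real libraries. Coordinates are from GENCODE M21 (GRCm38, the assembly of mm10; 52073 of 52381 identifiers matched). Members and lists were chosen with earlier results of these data known. All members are named, with up to 3 genes of smallest p per list, and further genes where a list needed them. Same-numbered mice are not said to be paired, and the mouse number as a block was an alternative. The other alternatives were a pseudocount of 0.1, no filter or a mean FPKM of at least 5, median-of-ratios scaling, quantile normalization, library weights and left-out libraries. Counts of lists with libraries left out were added after seeing the data. Results were tabulated with Python 3.11.15, pandas 2.3.3 and scipy 1.17.1.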

Additional observations from a re-analysis of the deposited data

Results flagged for a closer look

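Of 26 groups of values examined with Dixon's outlier test, 7 held a lung far from the others of its group. The test's rate of about 1 group in 20 is for separate groups of normal values. The groups here share libraries, so this rate need not hold. Among the 7 flags, 4 were low values in TMAO replicate 5, the shallowest library. They were 111 FPKM for Ager, 6.19 for Rtkn2, 5.76 for Krt8 and 3.89 for Krt19. Relative to the median gene of its library, TMAO replicate 5 stood at 5.07 for Ager, against 4.91 to 5.40 in the other TMAO lungs, and at 1.02 for Krt8, against 0.78 to 1.40. It remained the lowest TMAO lung for Rtkn2, at 1.11 against 1.23 to 2.43, and the lowest of all 9 lungs for Krt19, at 0.55 against 0.98 to 1.32 in the other TMAO lungs. LPS-ALI replicate 4 was high for Krt8, with 83.6 FPKM, and LPS-ALI replicate 3 was low for Clic5, with 34.2 FPKM. The type 1 score of TMAO replicate 4, 3.57, was low against 3.86 to 3.93 in the other TMAO lungs.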

How the results depend on the processing

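No member passed the adjusted threshold in any of the 18 other settings, and Ager, Pdpn, Cav1, Clic5 and Krt19 kept their direction in all of them. The number of genes called over the whole table was 0 with all libraries, 51 with library weights and 0 to 3 when 1 library was left out (3 without TMAO replicate 4). With library weights the relative differences of Hopx, Emp2, Krt8 and Krt18 turned to 0.19, -0.017, 0.084 and 0.12, the keratin score difference came to -0.012 and the gap between type 1 and keratin scores to 0.040. Without the X-coded libraries Hopx, Rtkn2, Emp2 and Krt8 turned to 0.15, -0.15, -0.17 and 0.030, the type 1 score difference of 0.12 to -0.19, the keratin score difference of -0.52 to -0.11 and their gap to -0.082. With no filter that of the type 1 score was -0.0022. Without LPS-ALI replicate 4 and TMAO replicate 5 Hopx was 0.18. Leaving out 1 library at a time gave -0.55 to 0.37 for Hopx, -0.19 to 0.38 for Emp2, -0.33 to 0.058 for Krt18 (0.058 without TMAO replicate 4, 0.0065 without LPS-ALI replicate 3), -0.047 to 0.27 for the type 1 score difference, -0.68 to -0.32 for the keratin score difference and 0.39 to 0.91 for their gap. The causes were not tested. With the mouse number as a replicate block 0 genes were called and Pdpn was -0.93; same-numbered lungs did not deviate together (r of -0.13 to 0.06). Depth is known only as a ratio between libraries.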
